A study of Sus scrofa with 70 samples.

Results

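PIGR, JCHAIN, MZB1 and POU2AF1 are the genes described here, 4 of the 35680 gene names in the expression table of the boar's reproductive organs. They were proposed as a group with earlier results of these data known, and the rule takes them by name. The TPM values, a level scaled for transcript length and library size, of all deposited transcripts carrying each gene name were summed. The study profiled 5 organs, namely the testis and epididymis and the accessory sex glands, which are the vesicular (VG), prostate (PG) and bulbourethral (BG) glands, of boars aged 12 months from the Banna mini-pig inbred line (BMI) and the Diannan small-ear pig (DSE). Each of the 10 groups of breed and organ had 3 short-read RNA libraries, 30 in all, and 1 long-read (PacBio) library. No boar was treated or genetically altered, BMI is an inbred line, and the labels do not say whether the 3 libraries of a group came from separate boars or which segment of the epididymis was taken. The study's methods speak of 30 tissue samples, without saying from how many boars. The p-values therefore measure the spread between these samples, which may be less than that between boars.

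Secretory IgA reaches mucosal fluids through the work of a pair of cell types. Plasma cells below an epithelium make IgA and link its units with the joining chain, and epithelial cells take up the linked antibody at their base with the polymeric immunoglobulin receptor and release it at the lumen. PIGR encodes that receptor, JCHAIN the joining chain, MZB1 a chaperone of the endoplasmic reticulum that aids the assembly of immunoglobulin in B cells and plasma cells, and POU2AF1 a coactivator (OBF-1) that works with the octamer-binding factors in cells of the B lineage.

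All 4 genes lie on the minus strand of Sscrofa11.1. The deposited annotation placed PIGR at chr9:67553098-67574668, POU2AF1 at chr9:39119052-39144606 and MZB1 at chr2:141277544-141279641. The JCHAIN transcript with most of the expression, ENSSSCT00000060871, lay at chr8:67439415-67448877 with 5 exons, and the other JCHAIN models started further upstream. On the log2(TPM + 1) scale used below, PIGR and JCHAIN had the largest increases of the 4 in the BG, and so their upstream bases are shown. These are the 250 bases directly upstream of the RefSeq gene start of PIGR, and of the start of ENSSSCT00000060871 for JCHAIN. They were read 5′ to 3′ on the minus strand from the Sscrofa11.1 reference, with capitals marking a match to a searched motif.
PIGR upstream, chr9:67574699-67574948, minus strand: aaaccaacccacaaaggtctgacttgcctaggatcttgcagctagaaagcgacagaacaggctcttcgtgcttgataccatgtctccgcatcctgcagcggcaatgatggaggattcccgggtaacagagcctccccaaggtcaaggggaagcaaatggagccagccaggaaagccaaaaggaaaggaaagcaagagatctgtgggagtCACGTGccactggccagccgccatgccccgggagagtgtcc
JCHAIN upstream, chr8:67448878-67449127, minus strand: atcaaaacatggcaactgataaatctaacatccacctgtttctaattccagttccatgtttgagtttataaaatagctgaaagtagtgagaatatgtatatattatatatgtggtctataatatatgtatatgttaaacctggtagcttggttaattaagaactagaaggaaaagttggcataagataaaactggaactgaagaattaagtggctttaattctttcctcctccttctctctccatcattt
The motifs searched on both strands were the octamer ATGCAAAT, the E-box CACGTG and an interferon-type repeat of GAAA, any 2 bases and GAAA. The PIGR window held 1 E-box, 41 bases before the start, and this palindrome reads the same on both strands. Among 19556 promoter windows of the same length placed at RefSeq gene starts, 6.39% held this E-box, 1.24% the octamer and 3.01% the repeat. The windows of JCHAIN, MZB1 and POU2AF1 held no match to these letters, and the MZB1 window overlaps 2 exons of antisense transcripts.

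The libraries were compared with each other before the members were read. The labels of 29 of 30 libraries went with the organ whose other libraries they correlated with best. BMI prostate replicate 2 correlated with the VG libraries at a mean r of 0.955 and with the other PG libraries at 0.929, and its level of the prostate gene HOXB13 was 92.7 TPM against 264 to 297 TPM in the other 5 PG libraries. BMI epididymis replicate 2 had 9677 TPM of the epididymal lipocalin LCN8, against 1.51 to 21.2 TPM in the other 5 epididymis libraries. Members' results without these libraries are given where they change. The BG libraries expressed the epithelial gene EPCAM at 614 to 879 TPM, and the homeobox genes HOXA13 and HOXD13 were higher there than in the other organs by 2.64 and 4.15 on the log2 scale.

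PIGR was at its highest in the BG, but in only part of its libraries. The BMI libraries held 1.9, 20.9 and 2.74 TPM and the DSE libraries 0.124, 0.797 and 19.1 TPM, in the order of replicates 1 to 3. The 24 libraries of the other organs held 0 to 1.91 TPM. So 3 of the 6 BG libraries lay above all others, and the other 3 lay within the range of the other organs. Differences between groups were tested with limma on log2(TPM + 1), a scale that understates changes of genes at a low level, in 1 model of all 30 libraries over 19911 genes. A gene was called where its p, adjusted by the method of Benjamini and Hochberg, fell below 0.05 and its difference reached 1 on the log2 scale. PIGR was 1.75 higher in the BG than in the mean of the 4 other organs (SE 0.40, 95% interval 0.93 to 2.57, limma adjusted p = 0.00068). In this comparison 8.44% of all genes tested were called higher and 12% lower, and PIGR, JCHAIN and MZB1 were among the higher, as was POU2AF1, which passed the filter on low values only through the BG. Leaving out 1 library at a time gave 1.11 to 2.15, each of them called. At a pseudocount of 10 TPM the difference was 0.59 and not called, and with a filter of 5 TPM PIGR could not be fitted.

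By organ, the order of the PIGR levels was BG, PG, epididymis, VG and testis. The BG exceeded the epididymis, VG and testis in the test, by 1.55, 1.95 and 2.08 on the log2 scale, in comparisons where 6.32%, 23.6% and 15.8% of all genes were called higher in the BG, while the difference of 1.42 from the PG had a limma adjusted p of 0.051. With 1 library left out, PG minus BG was -1.82 to -0.78, with limma adjusted p of 0.011 to 0.195. Single libraries thus moved it across the p threshold. With the replicate number as a block within breeds it passed (limma adjusted p = 0.041). None of the neighbours below the BG differed by the call. The highest values outside the BG were 1.91 TPM in DSE epididymis replicate 3 and 1.86 TPM in BMI prostate replicate 1, and the testis libraries reached 0.15 TPM at most. Medians were 2.32 TPM in the BG, 0.736 in the PG, 0.513 in the epididymis, 0.0687 in the VG and 0.0926 in the testis, so the VG and testis change places by the median. In bulk tissue, fewer cells of a type and less RNA per cell cannot be told apart.

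**Figure D1:**
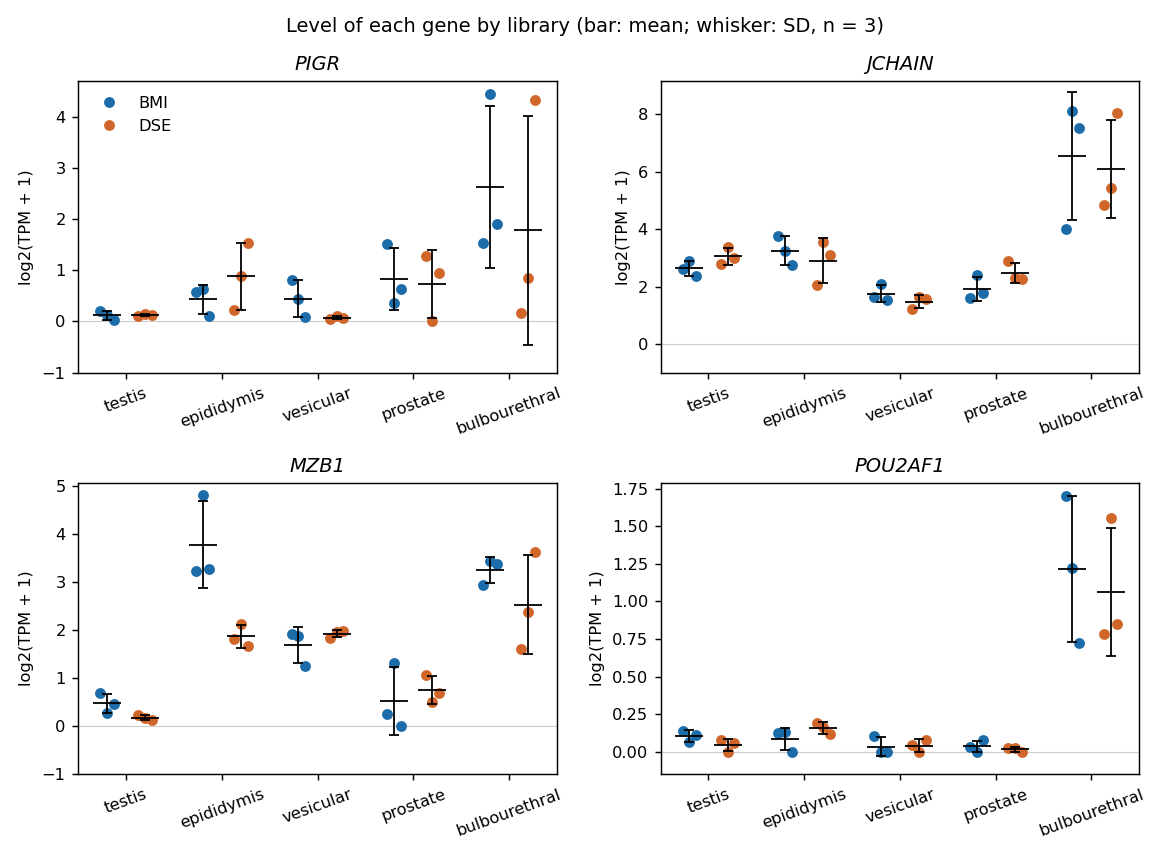
PIGR, JCHAIN, MZB1 and POU2AF1 in each of the 30 libraries as log2(TPM + 1), by organ and breed, with a point per library, a bar for the group mean and a whisker for the SD (n = 3). POU2AF1 and JCHAIN lie above all other organs in each of the 6 BG libraries, PIGR in 3 of 6, and MZB1 is high in the BG and in BMI epididymis, while in DSE the epididymis lies at the level of the VG.

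JCHAIN separated the BG from every other organ. Its BG libraries held 15.2, 279 and 185 TPM in BMI and 27.7, 42.4 and 264 TPM in DSE, and the 24 other libraries ranged from 1.33 to 12.6 TPM. The groups did not overlap, although the lowest BG library stood only slightly above the highest epididymis library. The share of all genes that separate the BG in this way is not given here. JCHAIN was 3.90 higher in the BG than in the other organs on the log2 scale (SE 0.41, 95% interval 3.06 to 4.74, limma adjusted p = 2.5e-08). The order below the BG was epididymis (3.13 to 12.6 TPM, median 8.05), testis (4.18 to 9.47 TPM, median 6.22), PG (2.04 to 6.42 TPM, median 3.86) and VG (1.33 to 3.24 TPM, median 2.04), with no call between neighbours in that order. VG and PG were each called lower than the mean of the other organs, by 2.0 and 1.26, in comparisons where 30% and 12.8% of all genes were called lower. The PG call ended after genes over 1% of a library were removed and the rest rescaled (-0.94) and at a pseudocount of 10 TPM (-0.81). In the VG, the median of all genes tested was itself -0.69. With median-of-ratios size factors that median was -0.20 and the JCHAIN difference in the VG was -1.36, still called.

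The JCHAIN sum was made up differently in the BG and elsewhere. ENSSSCT00000060871 carried 93.4% of the JCHAIN TPM in the BG, but 35.1% in the testis, 56.1% in the epididymis, 36.4% in the VG and 60.1% in the PG. The rest came from models that start upstream of it, among them 4 long-read isoforms supported by 9 full-length reads in all, 4 of them in BMI BG. When ENSSSCT00000060871 alone was counted, a choice made after the data were seen, JCHAIN in the testis was called lower than in the other organs by 1.37, and the PG difference of -1.03 had a limma adjusted p of 0.090. Its BG libraries alone held 11.3 to 264 TPM, against at most 6.92 TPM in any other library.

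In the organs where PIGR was highest, its level came almost wholly from 1 model. The long-read isoform PB.19936.1, of 3933 bases and 11 exons with a predicted coding sequence of 758 residues, carried 98.0% of the PIGR TPM summed over all libraries, and 99.9% in the BG, 98.1% in the epididymis and 92.3% in the PG. It carried 82.3% in the VG, where it was at 0 in all 3 DSE libraries, and 33.7% in the testis. The deposited long-read table classes it as an isoform with a retained intron, and 25 of its 26 full-length reads came from BMI BG, or 64.3 per 1000000 full-length reads (95% Poisson interval 41.6 to 95, counting error only). DSE BG had 0 reads of this isoform, with a 95% Poisson interval of 0 to 13.9 per 1000000, and DSE PG had 1. Long reads matching the Ensembl models of PIGR were not counted. With 1 long-read library per group there is no replicate check on these counts. When Ensembl transcripts alone were kept, PIGR fell below the filter on low values and could not be tested.

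POU2AF1 was low everywhere, and detected at 0.655 TPM or more in the BG alone. The BMI BG libraries held 2.25, 1.33 and 0.655 TPM and the DSE BG libraries 0.724, 1.93 and 0.805 TPM. The other 24 libraries held 0 to 0.141 TPM. The groups did not overlap, and the share of all genes that do so is again not given. POU2AF1 was 1.07 higher in the BG on the log2 scale (SE 0.10, limma adjusted p = 3.6e-09), a call that ended at a pseudocount of 10 TPM (0.17) and with array weights (0.87), which give deviating libraries less weight. It passed the filter of at least 1 TPM in at least 3 libraries only through 3 BG libraries, so its call in this comparison was favoured by the filter. The other 4 organs did not differ from each other by the call. The deposited annotation holds no isoform of POU2AF1 with a long-read name, and long reads matching its Ensembl model were not counted.

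MZB1 had a different distribution, with high levels in the BG and in the epididymis of BMI. The BG libraries held 6.66, 9.82 and 9.41 TPM in BMI and 2.04, 4.19 and 11.4 TPM in DSE. The epididymis libraries held 8.41, 27.3 and 8.70 TPM in BMI and 2.55, 3.39 and 2.17 TPM in DSE. The DSE epididymis libraries lay around the DSE VG libraries, at 2.59, 2.89 and 2.96 TPM, with mean log2 values of 1.88 and 1.93. VG libraries ranged from 1.41 to 2.96 TPM (median 2.75), PG libraries from 0 to 1.51 TPM (median 0.522) and testis libraries from 0.098 to 0.607 TPM (median 0.198), so no BG library lay above all the others. MZB1 was 1.49 higher in the BG (SE 0.23, limma adjusted p = 8.9e-06) and 1.41 higher in the epididymis (SE 0.23, limma adjusted p = 1.9e-05) than in the other organs, where 15.1% of all genes were called higher in the epididymis. The difference between the epididymis and the BG was -0.07 (SE 0.30, limma adjusted p = 0.92). MZB1 was lower in the testis by 1.71 and in the PG by 1.32, with 12.7% and 12.8% of all genes called lower. The VG exceeded the PG by 1.17, where 3.43% of all genes were called higher. The epididymis exceeded the VG by 1.02, where 34.5% were called higher, a call that ended with median-of-ratios size factors (0.16) and after genes over 1% of a library were removed (0.094). It also ended without BMI epididymis replicate 2 (0.75), DSE epididymis replicate 2 (0.95), BMI VG replicate 3 (0.91) or DSE VG replicate 1 (0.99). At a pseudocount of 10 TPM all of these MZB1 differences between organs fell below 1 on the log2 scale, to 0.45 in the BG, 0.48 in the epididymis, -0.45 in the testis and -0.39 in the PG, so none was called.

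Whether the short reads were quantified by strand is not given in the sources used here. A pair of antisense long-read isoforms at the MZB1 locus carried 3 and 21 full-length reads, and their summed level in the BG was 27.2 to 34.5 TPM in BMI and 9.19 to 9.90 TPM in DSE, against 0.0794 to 2.69 TPM in the other organs. Their exons did not overlap those of MZB1, and their part in the MZB1 values was not tested.

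**Figure D2:**
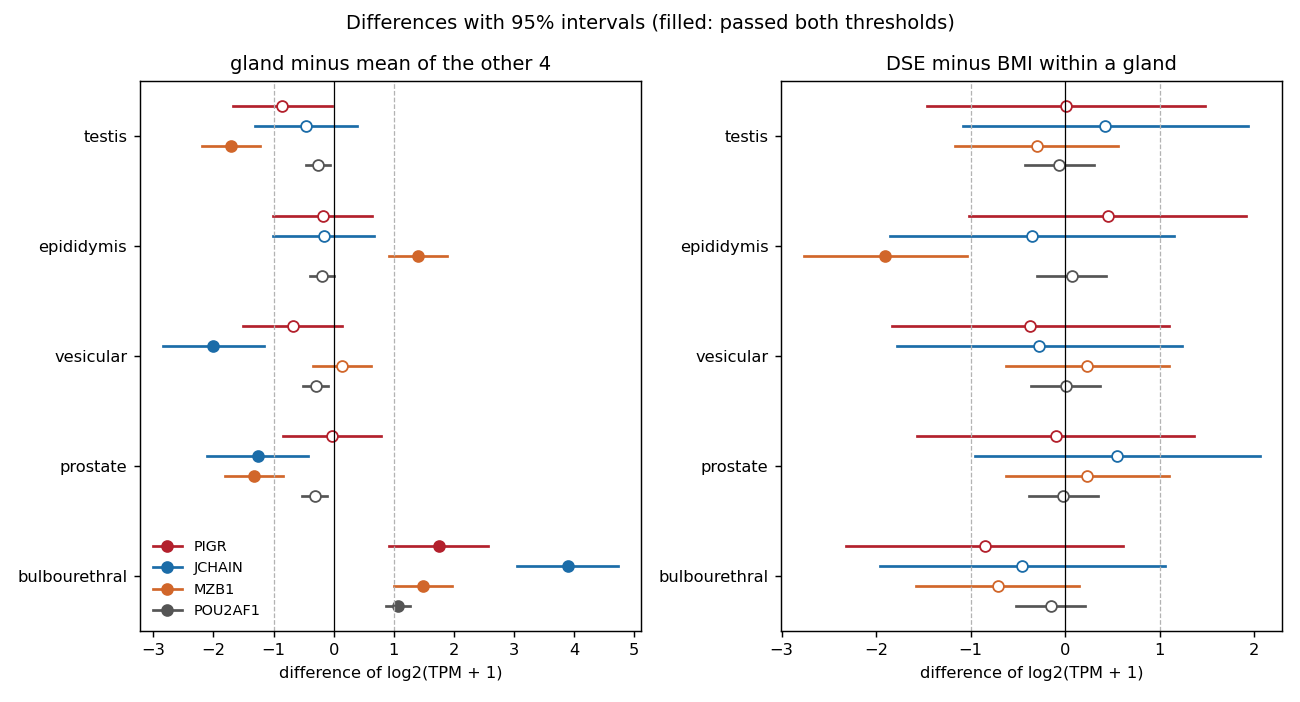
Differences of log2(TPM + 1) with 95% limma intervals for each organ minus the mean of the other 4 (left) and for DSE minus BMI within each organ (right), with filled points for called differences and dashed lines at a difference of 1 in either direction. All 4 genes lie above 0 in the BG, and among the breed differences only that of MZB1 in the epididymis is called.

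The breeds did not differ by the call in any member over the 5 organs together. The DSE minus BMI differences were -0.17 for PIGR, -0.02 for JCHAIN, -0.49 for MZB1 and -0.03 for POU2AF1 on the log2 scale, with limma adjusted p of 0.88, 0.99, 0.18 and 0.92, where 0.387% of all genes were called. The unadjusted p of MZB1 was 0.015, and the other 3 were above 0.5. In the BG alone, where 0.296% were called, the differences were -0.85 for PIGR (95% interval -2.32 to 0.62), -0.45 for JCHAIN (-1.96 to 1.05), -0.71 for MZB1 (-1.58 to 0.15) and -0.15 for POU2AF1 (-0.52 to 0.21), none of them called. With array weights the MZB1 difference in the BG was -1.26 and passed (limma adjusted p = 0.017). The intervals of PIGR, JCHAIN and MZB1 reach beyond a 2-fold lower level in DSE, and that of JCHAIN also beyond a 2-fold higher one. Leaving out 1 library moved the PIGR difference to between -2.12 (without DSE replicate 3) and 0.060 (without BMI replicate 2), and that of JCHAIN to between -1.73 (without BMI replicate 1) and 0.33 (without BMI replicate 2).

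Without array weights, MZB1 in the epididymis was the only breed difference called among the members. It was 1.9 lower in DSE (SE 0.42, limma adjusted p = 0.026), and 0.703% of all genes were called in that comparison, 0.286% as lower. All 3 BMI libraries lay above all 3 DSE libraries, but the share of all genes with such a separation is not given here. Without BMI epididymis replicate 2, at 27.3 TPM, the difference was -1.38 with a limma adjusted p of 0.14. The call also ended without DSE replicate 1 (-1.88, adjusted p = 0.055) or DSE replicate 3 (-1.80, adjusted p = 0.058), and under 5 other alternatives. BMI replicate 2 also held 8449 TPM of GPX5, 744 TPM of the sperm protamine PRM1 and 171 TPM of SLPI, each the highest of the 6, and the part of these in the MZB1 value was not tested. The change of the breed difference from organ to organ gave an F test p of 0.0075 for MZB1 and an adjusted p of 0.15, and 0 of 4 members passed it, with 2.94% of all genes called. At an unadjusted p below 0.05, 1 of the 4 members passed, as did 14.2% of all genes.

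PIGR and JCHAIN spread widely between the BG libraries. Over both breeds, the highest PIGR library stood 169-fold above the lowest, and the highest JCHAIN library 18.4-fold. Their standard deviations within breeds, 1.94 and 1.98 on the log2 scale, were at the 99.7th percentile of all genes tested in the BG, where the median gene had 0.29. The same comparison placed MZB1 at the 93.6th and POU2AF1 at the 76.2nd percentile. In the testis, where JCHAIN was at 4.18 to 9.47 TPM, its percentile was 39.6. It was 42.4 in the VG, 64.9 in the epididymis and 74.7 in the PG. In the PG, PIGR was at the 91.2nd and MZB1 at the 87.3rd percentile, so wide spread was not confined to the BG. The libraries were not ordered alike by all 4 genes. BMI replicate 2 and DSE replicate 3 held the most PIGR and JCHAIN and the most MZB1, whereas POU2AF1 was highest in BMI replicate 1, the library with the least JCHAIN.

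JCHAIN and immunoglobulin alpha, the heavy chain of IgA, moved together between the BG libraries. Immunoglobulin classes were rebuilt, after the data were seen, from deposited transcripts whose exons overlap RefSeq constant or variable gene segments, and 7 transcripts deposited under IGHM on the unplaced scaffold AEMK02000452.1 made up the alpha class. Alpha in the BG libraries was 71.7, 1283 and 963 TPM in BMI and 126, 225 and 1507 TPM in DSE, and the highest library of any other organ held 22.8 TPM. Although alpha spread 21.0-fold and JCHAIN 18.4-fold, the alpha to JCHAIN ratio was 4.53 to 5.72 in all 6 libraries, a spread of 1.26-fold. Outside the BG the ratio was lower and varied more, at 0.0082 to 0.15 in the testis, 0.50 to 1.27 in the epididymis, 0.21 to 2.34 in the VG and 0.98 to 3.55 in the PG. In the BG, the ratio of lambda light chain to alpha spread 1.89-fold, that of JCHAIN to PIGR 28.1-fold and that of JCHAIN to MZB1 12.5-fold. The split of reads among near-identical immunoglobulin genes is uncertain, and a ratio within a library does not depend on its scaling.

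**Figure D3:**
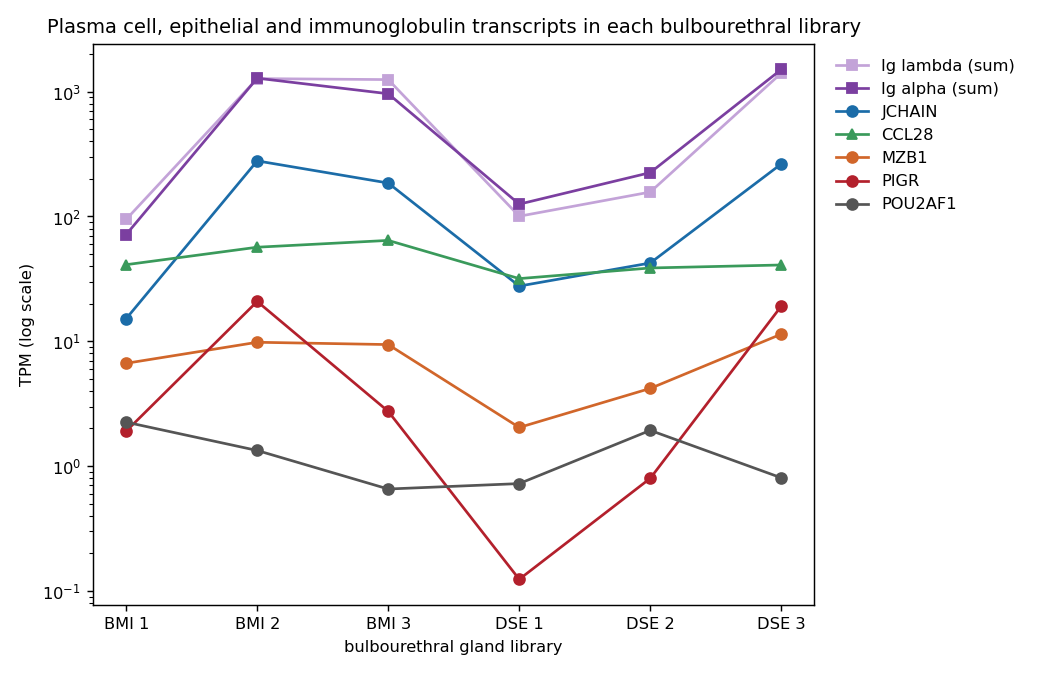
TPM of the 4 members, CCL28 and the summed immunoglobulin alpha and lambda transcripts (log axis) in the 6 BG libraries, with a line joining each gene's points for reading only. JCHAIN and alpha rise and fall in parallel, with an alpha to JCHAIN ratio of 4.53 to 5.72, while CCL28 stays between 31.8 and 64.3 TPM.

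Alpha was 6.61 higher in the BG than in the other organs on the log2 scale (SE 0.51, limma adjusted p = 1.5e-10), lambda 4.55 higher, kappa variable 3.81 and mu 2.34. Of these classes only alpha separated all 6 BG libraries from the other organs. BMI epididymis replicate 1 held 342 TPM of lambda, 282 of kappa variable and 29.2 of mu, so 3, 1 and 3 of the 6 BG libraries lay above all others. Lambda reached 1408 TPM and kappa variable 432 TPM in DSE BG replicate 3, and the lowest BG library held 94.8 and 14.9 TPM. Long reads counted 400 alpha reads in BMI BG, or 1029 per 1000000 full-length reads (95% Poisson interval 931 to 1135, counting error only), and 23 in DSE BG, or 86.7 per 1000000 (54.9 to 130). The gamma heavy chain of IgG was distributed otherwise. It was 2.06 higher in the epididymis than in the other organs (limma adjusted p = 0.017), with 495 TPM in BMI replicate 1 and 265 TPM in DSE replicate 2 against 3.99 to 34.1 TPM in the other 4, and it was not called in the BG (2.73 to 58.7 TPM, difference 0.49). The epididymis library with the most MZB1, BMI replicate 2, held 7.34 TPM of gamma. BMI replicate 1 and DSE replicate 2, high in gamma, held 8.41 and 3.39 TPM of MZB1. Long reads were counted for only 3 of the 14 gamma transcripts, and reads matching the Ensembl gamma models were not counted. These counts therefore cover a part of the class and cannot be set against its summed TPM. The 3 isoforms had more reads in the BG than in the epididymis of both breeds. DSE BG had 55 gamma reads, or 207 per 1000000 (95% Poisson interval 156 to 270), against 14 in DSE epididymis, or 60.5 (33.1 to 102). BMI BG had 33, or 84.9 per 1000000 (58.5 to 119), against 3 in BMI epididymis, or 6.54 (1.35 to 19.1). The deposited table classes the 3 isoforms, which held all 131 gamma reads counted in the 10 libraries, as fusions. None of these reads remain without that class, and with 1 long-read library per group the difference was not tested.

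**Figure D4:**
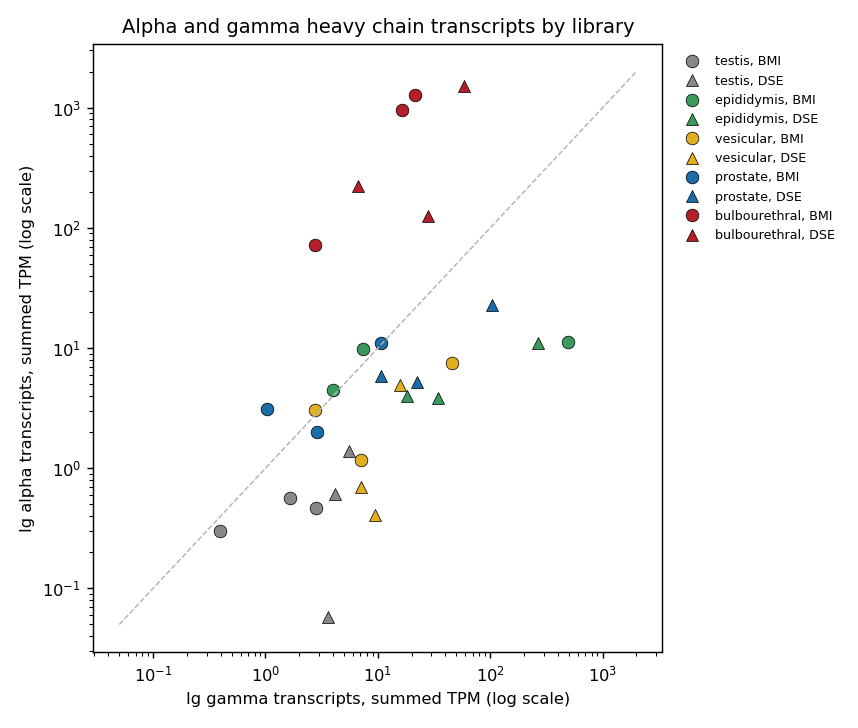
Summed immunoglobulin alpha TPM against summed gamma TPM in each of the 30 libraries, both on log axes, with colours for organs, symbols for breeds and a dashed line where both are equal. The BG libraries lie above the line, at 71.7 to 1507 TPM of alpha, and the libraries with most gamma, at 495 and 265 TPM, are epididymis libraries below it.

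Around the 4 genes, the lists fixed for this tissue were read in the same BG comparison, in which the median of all genes tested was -0.05 and 8.44% were called higher. Of 13 plasma cell genes tested, 1 was called higher, a share near that of all genes, and 1 lower, with a median of 0.09. XBP1, a transcription factor of secretory cells, was higher by 1.95 (580 to 949 TPM), and TENT5C, a polymerase that stabilizes immunoglobulin mRNA, was lower by 1.12. The BCMA receptor gene TNFRSF17 was at most 2.0 TPM in the BG and not called (0.28 higher). Among 8 B cell genes tested 0 were called by limma, 6 had an unadjusted p below 0.05, as had 59.6% of all genes, and MS4A1 stayed at or below 0.163 TPM in each BG library. Of 12 epithelial genes all were called higher, of 11 macrophage genes 7 and of 6 genes shared by leukocytes 4, with medians of 1.92, 1.23 and 1.11. Among 8 T cell genes 2 were called higher. Epithelial genes were called higher in other organs too, 10 of 12 in the PG and 8 of 12 in the epididymis, where 3.71% and 15.1% of all genes were, and all 12 were called lower in the testis (median -5.24), where 12.7% were. Between the PG and the BG, where 7.65% of all genes were called in either direction, 0 of the 12 epithelial and 0 of the 6 leukocyte genes were called by limma, and 5 and 1 had an unadjusted p below 0.05. The share of all genes at that p between these organs is not given here, so nothing is read from those unadjusted counts. In that comparison 1 of 11 macrophage genes and 1 of 8 T cell genes were called higher in the BG, with medians of PG minus BG of -0.72 and 0.08 against -0.11 for all genes. The part of these cell types in the members' values was not tested.

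Of the 13 genes tested for the recruitment and survival of IgA plasma cells, 3 were called higher in the BG, where 8.44% of all genes were, and 2 of the 13, CCL28 and MADCAM1, passed the filter on low values only with the BG libraries. CCL28, a chemokine that attracts IgA plasma cells to mucosal surfaces, was at 41.1, 56.7 and 64.3 TPM in BMI and 31.8, 38.7 and 40.9 TPM in DSE, against at most 0.136 TPM in any library of another organ. It was 5.46 higher on the log2 scale (SE 0.09), and its call was favoured by the filter. TNFSF13 (APRIL) and TNFSF13B (BAFF), survival factors of plasma cells, were higher by 1.51 and 1.21. Between BG libraries the highest CCL28 level was 2.02-fold above the lowest, against 18.4-fold for JCHAIN.

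Lists of genes that act around PIGR and POU2AF1 were read in the same way. Of 14 transcytosis genes tested, 4 were higher in the BG, which were RAB17 (1.41), RAB25 (1.44), RAB3D (1.47) and YES1 (1.26), the last a kinase that acts in transcytosis of the receptor and the first 3 small GTPases of polarized or secretory cells. Of 17 regulators of PIGR, STAT6 (1.05) and TLR4 (2.01) were higher. Of 6 partners and relatives of POU2AF1, SPI1 (1.39) was higher, and of 13 genes for the folding of immunoglobulin, PDIA4 (1.24) was higher. The shares of 2 of 17 and 1 of 13 are near the 8.44% of all genes, so nothing is read from them. Of 9 other genes of luminal defence, 4 were higher and 2 lower, among them lysozyme, LYZ, at 149 to 317 TPM in the BG against at most 13.4 TPM elsewhere (6.19 higher).

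The genes most like each member across the 30 libraries were partly shared. By Pearson's r over log2(TPM + 1) among 13876 genes with a symbol, PIGR was most like MAB21L3 (0.87) and SCGB3A1 (0.85), JCHAIN like CHI3L2 (0.92) and BACH2 (0.91), MZB1 like CIDEB (0.88) and S100A2 (0.88), and POU2AF1 like ZBED2 (0.96) and SMIM33 (0.95). IL18R1 and CHI3L2 were among the 5 nearest genes of both PIGR (0.84 and 0.82) and JCHAIN (0.88 and 0.92). These are descriptions over libraries that share organs, and carry no test. When each group's mean was removed, the nearest to PIGR were FOXI2 (0.88) and the keratin KRT4 (0.88), and the nearest to JCHAIN was IGHM (0.92), the name under which alpha is deposited. In the BG, KRT4 was at 0.122, 5.96 and 0.198 TPM in BMI and 0, 0.475 and 14.6 TPM in DSE, and the secretoglobin SCGB3A1 at 2.72, 37.1 and 0.974 TPM in BMI and 0, 0.157 and 13.3 TPM in DSE. Both were highest in the 2 BG libraries with the most PIGR, and their part in the PIGR value was not tested.

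Relations between pairs of members within an organ were computed over its 6 libraries, 30 in all. By an exact permutation test of Pearson's r, 4 had a p below 0.05 and 0 had an adjusted p below 0.05 (lowest 0.31). The same holds for Spearman's rho, with a lowest adjusted p of 0.25. In the BG, the libraries left a wide gap in each of JCHAIN and PIGR, at 0.51 and 0.57 of the log2 range. No r of this pair is therefore given there, although both genes were highest in BMI replicate 2 and DSE replicate 3.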

How the data were processed

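RNA of 5 organs from BMI and DSE boars was sequenced as short reads (30 libraries) and PacBio long reads (10 libraries), with 30 small RNA libraries not used here. The authors assembled long-read isoforms on Sscrofa11.1 and quantified transcripts with Salmon 1.9.0, and the deposited TPM table gives no read depth. GSNAP, STAR 2.7.10a and Bowtie 1.3.1 are also named in the submitters' processing notes. The deposited long-read counts are full-length reads per isoform, and 231413 to 458697 reads per library were in the table. For the genes read here, they were taken for isoforms with a long-read name in the deposited annotation. Reads matching Ensembl models were not counted. The labels name rRNA depletion while the study's methods describe poly-T selection, which could change the level of transcripts with short tails.

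TPM was summed by gene name, 1 TPM was added, and log2 values of genes that reached 1 TPM in 3 or more libraries (19911 genes) were fitted with limma 3.58.1 (R 4.3.3) over the 10 groups, with a mean-variance trend and Benjamini-Hochberg adjustment. Immunoglobulin class sums were fitted separately with the same model. The fit was tested on simulated data. Of each likeness measure, the 5 nearest genes were taken and the first were named. The members and lists were chosen with earlier results of these data known. Replicate numbers were checked for pairing: same-numbered libraries of a breed had deviations from group means with r of -0.30 to 0.38 (mean 0.056), so they were not taken as pairs. Other pseudocounts, filters, scalings, transcript sets, weights and left-out libraries were tried. Columns of the authors' comparisons were not used.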

Additional observations from a re-analysis of the deposited data

Results flagged for a closer look

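Within each organ, the highest and lowest of the 6 libraries were tested with Dixon's gap test for the members and 6 immunoglobulin classes, 50 groups in all, and 10 stood apart. A chance rate of about 1 in 20 holds for normal values. These were unlogged TPM of both breeds pooled, some of them near 0, so the count is not read against that rate. MZB1 was at 27.3 TPM in BMI epididymis replicate 2, above the others, and at 1.41 TPM in BMI VG replicate 3, below the others. BMI epididymis replicate 1 was high in kappa variable (282 TPM) and delta (1.85 TPM). BMI VG replicate 2 was high in gamma (45.8 TPM) and kappa variable (36.4 TPM). DSE PG replicate 1 was high in gamma (103 TPM) and kappa variable (53.0 TPM). Delta was also high in DSE VG replicate 1 (0.119 TPM) and BMI PG replicate 3 (0.235 TPM). No member stood apart in the BG by this test.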

How the results depend on the processing

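The calls of PIGR, JCHAIN and MZB1 in the BG against the other organs held under each left-out library, both rescalings and both blocks. POU2AF1 passed the filter only through 3 BG libraries and could be fitted in 27 of 30 leave-outs, so nothing is read from its calls there. The BG calls ended at a pseudocount of 10 TPM, where the differences were 0.59 for PIGR, 0.45 for MZB1 and 0.17 for POU2AF1, and with array weights for POU2AF1 (0.87), while JCHAIN kept its call at 2.69 to 4.64 over the alternatives other than leave-outs. A larger pseudocount lowers every difference of a gene at a low level by construction, and elsewhere the cause was not tested. PIGR could not be fitted from Ensembl transcripts alone, and neither PIGR nor POU2AF1 with a filter of 5 TPM. The number of all genes called higher in the BG was 1681, and 640 to 2372 over these alternatives, and lower 2382 and 558 to 4438. For DSE lower than BMI in the epididymis it was 57, and 13 to 80, or 38 to 159 with 1 library left out. Over all organs 44 genes were higher in DSE (8 to 156) and 33 lower (4 to 152), and in the BG 34 (8 to 137) and 25 (8 to 203). Scaling moved the balance of calls in the other organs: with size factors, genes called higher and lower were 1696 and 1820 in the epididymis (3004 and 1305 as reported) and 1459 and 2386 in the VG (589 and 5974), and after rescaling 5807 and 4710 in the testis (6877 and 2537) and 1615 and 2173 in the PG (738 and 2551). The TPM table holds no read counts, and no counting error was computed for low TPM values.

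At a pseudocount of 10 TPM, MZB1 was at -0.45 in the testis, 0.48 in the epididymis, -0.090 in the VG and -0.39 in the PG, and 0.027 between the epididymis and BG. JCHAIN in the PG was at -0.81, no longer called. At 0.1 TPM, PIGR was at -1.92 in the testis, 0.084 in the epididymis and 0.32 in the PG, and POU2AF1 at -1.02 in the VG and -1.12 in the PG. Array weights gave PIGR 0.16 in the epididymis, 0.37 in the PG and -0.0017 for breed in the testis, and MZB1 0.11 between epididymis and BG and -1.26 for breed in the BG, past the threshold. With genes over 1% of a library removed and the rest rescaled, PIGR was at -1.15 in the testis and 0.23 in the PG, JCHAIN at -0.94 in the PG, no longer called, and -0.010 between testis and PG, and POU2AF1 at -0.022 between testis and VG. Size factors gave PIGR 0.063 in the PG, JCHAIN 0.092 for breed in the VG, POU2AF1 -0.0025 between testis and VG, and correlations within organs of the opposite sign for PIGR with POU2AF1 in the testis (0.0996), PIGR with JCHAIN (-0.106) and MZB1 (-0.0596) and JCHAIN with POU2AF1 (0.529) in the VG, and MZB1 with POU2AF1 in the BG (0.115). From Ensembl transcripts alone JCHAIN was at -1.06 in the testis and 0.0027 for breed over all organs. With ENSSSCT00000060871 alone it was at -1.37 in the testis, -1.03 in the PG, -0.27 between testis and PG and 0.027 for breed.

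The breed difference of MZB1 in the epididymis lost its call at a pseudocount of 0.1 TPM (-2.20) or 10 TPM (-0.88), after rescaling (-1.92), with a filter of 5 TPM (-1.90, limma adjusted p = 0.053) and when the epididymis libraries were fitted alone (-1.90, limma adjusted p = 1.0). With 1 library left out it was -2.17 to -1.38, and the call ended without BMI replicate 2, DSE replicate 1 or DSE replicate 3. Other leave-outs that turned a sign were of uncalled differences. For PIGR they gave -0.20 to 0.16 in the PG, -0.31 to 0.043 between epididymis and PG, and for breed -0.032 to 0.050 in the testis, -0.36 to 0.27 in the PG, -2.12 to 0.060 in the BG and -0.43 to 0.011 over all organs. For JCHAIN they gave -0.33 to 0.047 in the epididymis, and for breed -0.68 to 0.083 in the epididymis, -1.73 to 0.33 in the BG and -0.27 to 0.14 over all organs. For MZB1 they gave -0.33 to 0.21 between epididymis and BG and -0.030 to 0.63 for breed in the PG. For POU2AF1 they gave -0.0054 to 0.023 between VG and PG, and for breed -0.012 to 0.042 in the VG and -0.038 to 0.0011 in the PG.

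With the replicate number as a block, numbered within breeds, the PIGR difference between the PG and the BG of -1.42 passed the threshold (limma adjusted p = 0.041). The block changed no other call among the 128 member results.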
